A study of Mus musculus with 12 samples.

Results

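The growth hormone and IGF1 axis was followed in newborn *Man1a2* wild type (WT) and null mice through 10 genes, chosen by symbol from 24421 gene rows. The genes were *Ghr*, *Igf1*, *Igf1r*, *Igfals* and the binding protein genes *Igfbp1* to *Igfbp6*, and all 10 were found. *Man1a2* encodes an alpha-mannosidase of the Golgi that trims N-linked glycans. Pups came from breeding *Man1a2* +/- mice of the Man1a2tm1.1Ahe strain, in which an early exon is deleted in every tissue. The WT groups carried the wildtype genotype and the null groups the MAN1A2 knockout (*Man1a2*-/-). No pup received an agent, and liver and lung were taken soon after birth. Poly-A RNA was sequenced in 12 libraries, 3 for each of WT liver, null liver, WT lung and null lung. Libraries held between 26759463 and 42914295 counted reads. The study describes RNA of liver and lung from 3 newborn mice of each genotype, and the labels do not say which libraries share a pup. The main fits treated liver and lung libraries as independent, so p-values measure the spread between these libraries.

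Growth hormone from the pituitary binds GHR on hepatocytes and other cells, and JAK2 and STAT5 then drive transcription of *Igf1* and *Igfals*. IGF1 acts through the receptor tyrosine kinase IGF1R, which signals by way of insulin receptor substrates to PI3K and AKT. In blood most IGF1 is held in a complex with IGFBP3 or IGFBP5 and the acid labile subunit encoded by *Igfals*. The other binding proteins carry IGFs in smaller complexes and limit or prolong their access to the receptor. The growth hormone arm is known to mature after birth, whereas *Igf2* is the abundant fetal IGF.

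Levels are reads of a gene per 1000000 counted reads (CPM), with library sizes scaled over the 12 libraries by the trimmed mean of M-values (TMM). A gene was called where edgeR's quasi-likelihood p, adjusted over all genes tested by Benjamini-Hochberg, was under 0.05 and its level differed 1.2-fold or more. *Man1a2* itself stood at 87.0, 54.2 and 68.6 CPM in the WT livers and at 53.7, 48.2 and 50.2 CPM in the null livers. It stood at 105, 75.6 and 107 CPM in the WT lungs and at 42.7, 49.8 and 50.2 CPM in the null lungs. All 6 null libraries were thus below the WT libraries of their tissue. The log2 fold change was -0.47 (SE 0.17, adjusted p = 0.0809) in liver and -1.01 (SE 0.18, adjusted p = 0.0614) in lung. Whole-gene counts also take reads from the exons that the deletion leaves, so they check the labels in part.

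A pair of libraries stood apart from their groups. The library labelled null lung 1 had little of the lung epithelium signature. Of 8 such markers, 7 were below all other lung libraries, the sum was 333 CPM against 19713 to 26576 CPM in the other lungs, and *Sftpc*, the surfactant gene of alveolar type II cells, was at 26.6 CPM against 11908 to 17387 CPM. None of the 8 was at 0, and *Cldn18* was at 0.828 CPM. All 8 striated muscle markers and all 4 cartilage markers were above all other lungs, with sums of 17588 CPM against 207 to 563 CPM and 363 CPM against 0.632 to 4.65 CPM. All 4 smooth muscle and all 5 thymus and T cell markers were also above every other lung, and all 5 endothelium markers were below. Its correlation with the other lungs over genes was 0.854 to 0.872, against 0.969 to 0.995 among those. The library labelled null liver 1 kept a hepatocyte marker sum within the range of the other livers, with 1 of 10 markers below them, but had striated muscle at 7068 CPM against 5.67 to 8.05 CPM and cartilage at 623 CPM against 0.342 to 0.598 CPM. Its mesenchyme sum was 2852 CPM against 718 to 974 CPM, with 5 of 8 markers above all other livers. Genotype differences of the members are therefore given with and without these libraries where they moved, and tissue differences in the null mice likewise.

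**Figure D1:**
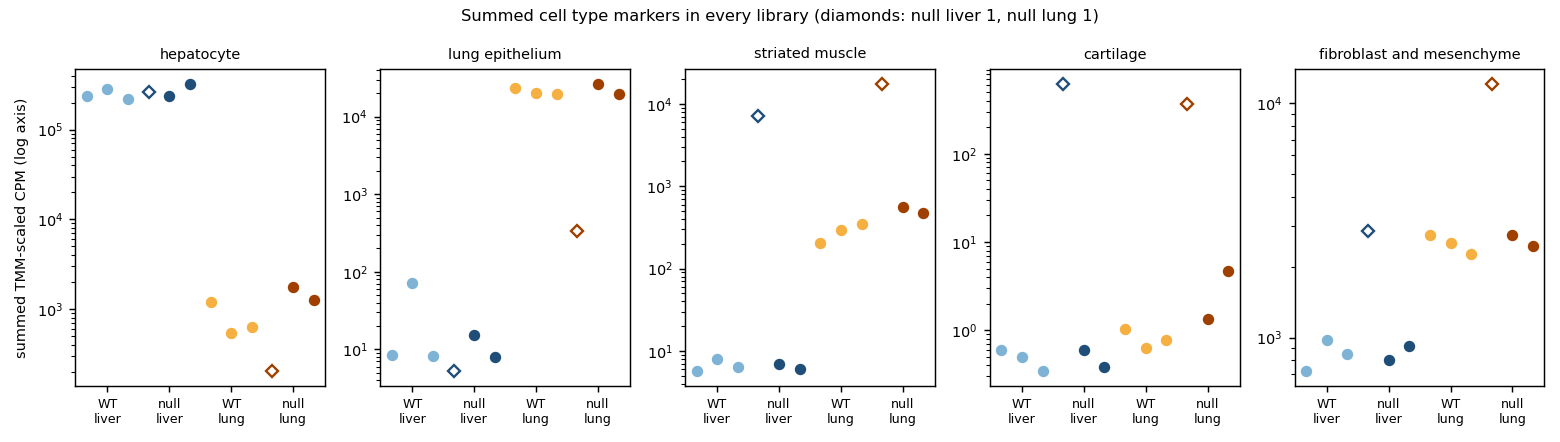
Summed TMM CPM of 5 marker lists (y axis, log scale) in each of 12 libraries by tissue and genotype, with null liver 1 and null lung 1 as open diamonds. Null lung 1 sits at 333 CPM for lung epithelium, below every other lung, and both diamonds lie far above their tissue for striated muscle and cartilage.

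In WT newborns some of the 10 genes were higher in lung and others in liver, as was the case over all genes. All 10 genes were called between WT lung and WT liver, where 77.0% of all 15635 genes tested were called, 39.8% higher and 37.2% lower in lung, so the count lies close to the background. With all 12 libraries in 1 fit 7 members were called, and 8 with DESeq2 size factors. Lung was higher for *Igf1r*, *Igfbp5*, *Igfbp6*, *Ghr* and *Igfbp3*, and liver was higher for *Igf1*, *Igfals*, *Igfbp1*, *Igfbp2* and *Igfbp4*. The ligand and the subunit that stabilises it in blood were on the liver side, and its receptor was on the lung side. The call of the ligand gene *Igf1* was lost with total-count scaling and with all 12 libraries in 1 fit. In 9 of the 10 the libraries of the groups did not overlap, against 81.3% of all genes. *Ghr* was the exception. Between null lung and null liver 8 of 10 were called, against 45.8% of all genes, and 9 without null lung 1 (60.7%) or without both libraries 1 (62.5%).

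Levels divided by exon length in kilobases (CPM per kb) give the order of the genes within a tissue. In WT liver *Igfbp1* (1405 ± 295 CPM per kb, SD, n = 3) and *Igfbp2* (1210 ± 72.4) were at the top with ranges that overlapped, followed by *Igfbp4* (242 ± 17.5), *Igfbp3* (37.4 ± 12.8) and *Igfbp5* (12.6 ± 1.68). *Ghr* (9.28 ± 1.69), *Igfals* (6.78 ± 1.09) and *Igf1* (6.38 ± 2.5) came next and overlapped one another. *Igfbp6* (4.75 ± 0.258) lay within 1 SD of *Igf1*, and *Igf1r* was lowest at 1.2 ± 0.145. In WT lung *Igfbp4* (72.3 ± 9.12), *Igfbp6* (61.5 ± 16.9), *Igfbp5* (55.9 ± 5.67) and *Igfbp3* (55.2 ± 4.18) formed a group at the top, with neighbours in that order overlapping. *Ghr* followed at 11.7 ± 0.837, *Igfbp2* at 9.34 ± 2.14, *Igf1r* at 4.69 ± 0.147, *Igf1* at 3.15 ± 0.800, *Igfbp1* at 1.64 ± 2.00 and *Igfals* at 0.896 ± 0.1. *Igfbp1* thus went from the top of the order in liver to near the bottom in lung. For scale, the fetal ligand gene *Igf2* was at 1112 ± 75.7 CPM per kb in WT liver and 57.5 ± 9.54 in WT lung, above *Igf1* in both.

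**Figure D2:**
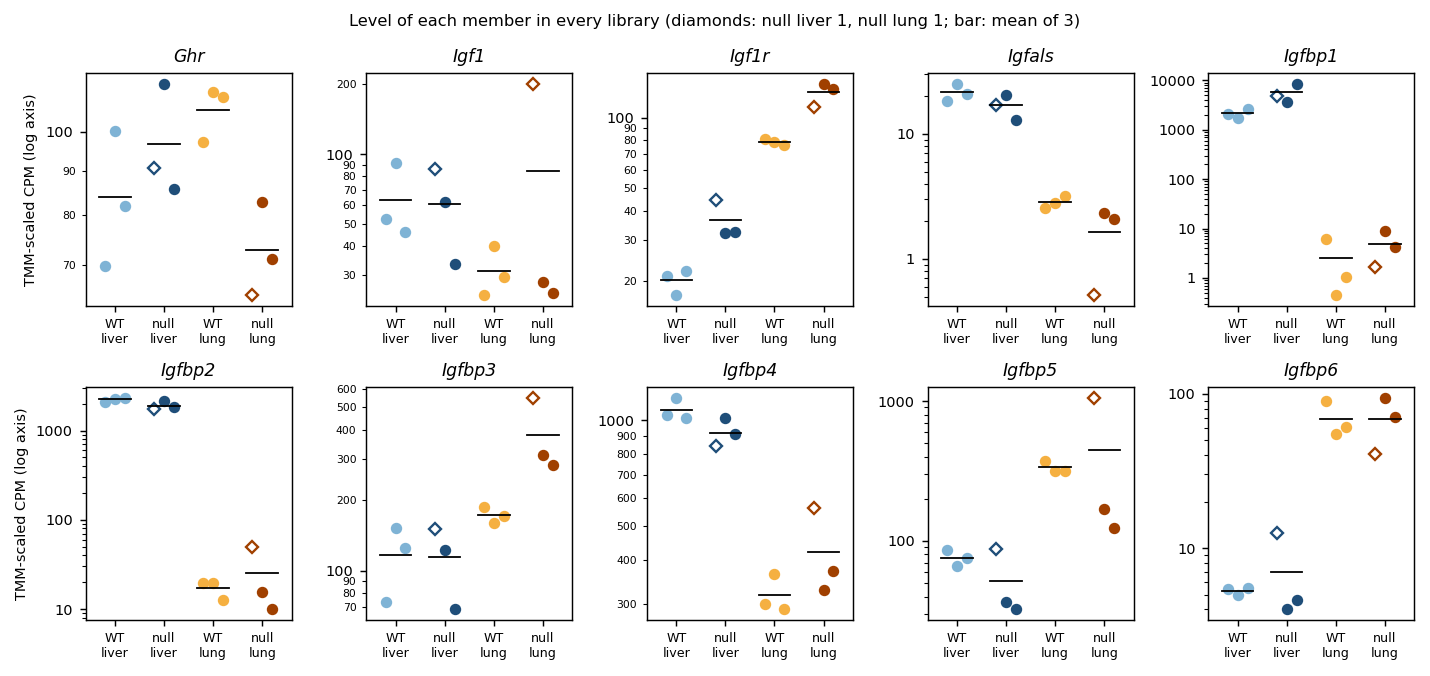
TMM CPM (y axis, log scale) of each of the 10 genes in every library, with the mean of 3 libraries as a bar and null liver 1 and null lung 1 as open diamonds. *Igfbp1* spans from 0.448 CPM in WT lung 2 to 8499 CPM in null liver 3, and null lung 1 is the highest lung for *Igf1*, *Igfbp2*, *Igfbp3*, *Igfbp4* and *Igfbp5*.

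*Igf1*, the ligand gene (chr10:87858265-87937042, plus strand), was at 52.1, 91.6 and 45.9 CPM in WT liver and at 24.5, 39.98 and 29.2 CPM in WT lung. Every WT liver was above every WT lung, and the log2 fold change, lung minus liver, was -1.03 (SE 0.26, adjusted p = 0.0053). Scaling by total counts in place of TMM moved the median log2 change of all genes from 0.04 to 0.83 and the calls from 6227 higher and 5812 lower in lung to 10133 and 2997. Under that scaling the *Igf1* value was -0.22 (adjusted p = 0.413), and it was the sole member to lose its call. In the null mice the livers were at 86.0, 62.2 and 33.3 CPM and the lungs at 201, 28.1 and 25.0 CPM, so the library low in lung epithelium markers was the highest of all 12. The null tissue difference was 0.49 (SE 0.87, adjusted p = 0.67) with it and -1.17 (SE 0.38, adjusted p = 0.0389) without it.

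*Igfals*, which encodes the acid labile subunit (chr17:24865997-24882010, plus strand), was at 18.3 to 25.1 CPM in WT liver and 2.55 to 3.18 CPM in WT lung, a log2 fold change of -2.93 (SE 0.16, adjusted p = 1.9e-07). Null livers ran from 13.0 to 20.6 CPM and null lungs from 0.514 to 2.34 CPM, and the lowest was null lung 1. The tissue difference in the null mice was -3.33 (SE 0.60, adjusted p = 0.0064), and -2.91 (SE 0.27) without null lung 1.

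*Igf1r* (chr7:67952827-68233668, plus strand) was at 21.1, 17.5 and 22.1 CPM in WT liver and at 81.2, 78.8 and 76.2 CPM in WT lung. The groups were far apart, with a log2 fold change of 1.95 (SE 0.11, adjusted p = 2.2e-07). In the null mice the difference was 1.82 (SE 0.20, adjusted p = 0.0012), and 1.92 (SE 0.17) without null lung 1. *Ghr*, the growth hormone receptor gene (chr15:3317760-3583492, minus strand), differed least. It was at 69.8, 100 and 82.1 CPM in WT liver and at 97.4, 111 and 110 CPM in WT lung, and the groups overlapped. Its WT difference of 0.33 (SE 0.13, adjusted p = 0.0421) was lost without WT liver 1 (0.203), WT liver 3 (0.138), WT lung 2 (0.111) or WT lung 3 (0.104), all adjusted p-values, and with DESeq2 size factors (0.059). In the null mice it was -0.40 (SE 0.19, adjusted p = 0.128), and 0.37 under total counts.

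The 6 binding protein genes were split. *Igfbp1* and *Igfbp2*, carriers of the fetal circulation, were far higher in liver, and *Igfbp4* was higher in liver by a smaller margin. For *Igfbp1* the WT log2 fold change was -9.73 (SE 0.996, adjusted p = 1.5e-05), and its lung reads are taken up again with albumin. *Igfbp2* was at 2084 to 2336 CPM in WT liver and 12.7 to 19.6 CPM in WT lung, a log2 fold change of -7.03 (SE 0.27, adjusted p = 2.3e-08). *Igfbp4* was at 1016 to 1157 CPM in WT liver and 291 to 365 CPM in WT lung (-1.76, SE 0.16, adjusted p = 6.5e-06). In the opposite direction, *Igfbp6*, whose protein prefers IGF2, was at 4.95 to 5.48 CPM in WT liver and 54.8 to 89.8 CPM in WT lung (3.68, SE 0.20, adjusted p = 1.8e-07). *Igfbp3* was at 73.4 to 152 CPM in WT liver and 161 to 187 CPM in WT lung. Its difference of 0.55 (SE 0.22, adjusted p = 0.0442) was lost when any library but WT liver 2 was left out, with adjusted p-values between 0.0608 and 0.101, and with DESeq2 size factors (0.054). With all 12 libraries in 1 fit *Igf1*, *Ghr* and *Igfbp3* were not called. *Igfbp5* was at 65.7 to 85.9 CPM in WT liver and 315 to 375 CPM in WT lung (2.13, SE 0.14, adjusted p = 6.6e-07).

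In the null mice the 6 genes kept these directions. *Igfbp1* (-10.16, SE 0.99), *Igfbp2* (-6.25, SE 0.75) and *Igfbp6* (3.31, SE 0.57) were called in every fit that left out 1 library. *Igfbp4* (-1.12, SE 0.28, adjusted p = 0.0187) was not called without null liver 2 or 3 or null lung 2 or 3, with adjusted p-values between 0.0538 and 0.0752. *Igfbp5* (3.12, SE 0.96, adjusted p = 0.039) was not called without any 1 of the 3 null livers (adjusted p between 0.0608 and 0.137), and *Igfbp3* (1.75, SE 0.39, adjusted p = 0.0135) not without null liver 2 (adjusted p = 0.0589). The *Igfbp5* size rested on null lung 1, since without it the value was 1.52 (SE 0.44, adjusted p = 0.0259). Without that library *Igfbp2* was at -7.21 (SE 0.35), *Igfbp3* at 1.41 (SE 0.31), *Igfbp4* at -1.37 (SE 0.18), *Igfbp1* at -9.75 (SE 0.76) and *Igfbp6* at 3.58 (SE 0.51). Without both libraries 1 *Igfbp5* was at 2.04 (SE 0.21).

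These genes lie in pairs. On GRCm38, *Igfbp1* (chr11:7197782-7202546, plus strand) and *Igfbp3* (chr11:7206086-7213923, minus strand) face each other tail to tail across 3.54 kb. *Igfbp2* (chr1:72824503-72852474, plus strand) and *Igfbp5* (chr1:72857932-72874884, minus strand) do the same across 5.46 kb. In each pair the plus strand gene was the liver one and the minus strand gene the lung one in WT mice. For *Igfbp3* that difference was small, and its call held in 1 of 6 fits that left out a library. No annotated gene overlaps any of the 4. *Igfbp4* (chr11:99041244-99054392, plus strand) and *Igfbp6* (chr15:102144362-102149511, plus strand) stand apart. *Igf1* alone among the members has an annotated partner on the other strand, *Igf1os*.

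The promoters of *Igfbp1* and *Igfbp3* are shown because these neighbours went opposite ways between the tissues, and *Igfbp1* and *Igf1r* because they were the members called in null liver. RefSeq sequences on GRCm38.p6 cover 250 bases before and 50 after an annotated start and were matched for all 10 genes. A set of 7 short motifs was searched on both strands, and matches are in capitals. They were TATAAA (in 13.6% of 32851 mouse promoters of this length), GGGCGG (Sp1 core, 35.7%), GTAAACA (forkhead core, 3.65%), CAAAACA (insulin response element core, 6.28%), GTTAAT (part of an HNF1 site, 7.1%), TTCNNNGAA (STAT5 core, 8.3%) and CCAAT (37.4%). No matches overlapped in the windows shown. *Igfbp1* (chr11:7197537-7197836, plus strand) held CAAAACA 108 bases before the start and GTTAAT, read on the opposite strand, 56 bases before it. *Igf1r* (chr7:67952007-67952306, plus strand) held GGGCGG 43 and 26 bases before its RefSeq start, which lies upstream of the GENCODE start. *Igfbp3* (chr11:7213874-7214173, minus strand) held none of the 7. A match is a run of letters and not a shown binding site.
Igfbp1 promoter, 5′ to 3′: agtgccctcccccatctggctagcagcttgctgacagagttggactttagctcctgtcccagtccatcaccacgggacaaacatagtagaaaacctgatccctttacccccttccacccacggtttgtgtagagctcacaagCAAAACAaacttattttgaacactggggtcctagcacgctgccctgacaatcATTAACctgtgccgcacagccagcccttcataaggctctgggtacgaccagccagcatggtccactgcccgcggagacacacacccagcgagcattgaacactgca
Igfbp3 promoter, 5′ to 3′: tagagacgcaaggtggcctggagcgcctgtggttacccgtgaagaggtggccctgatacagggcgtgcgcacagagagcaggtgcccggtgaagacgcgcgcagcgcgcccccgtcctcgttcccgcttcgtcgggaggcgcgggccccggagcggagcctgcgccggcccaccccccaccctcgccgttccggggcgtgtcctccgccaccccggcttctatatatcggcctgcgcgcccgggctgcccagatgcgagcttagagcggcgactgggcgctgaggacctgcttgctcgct
Igf1r promoter, 5′ to 3′: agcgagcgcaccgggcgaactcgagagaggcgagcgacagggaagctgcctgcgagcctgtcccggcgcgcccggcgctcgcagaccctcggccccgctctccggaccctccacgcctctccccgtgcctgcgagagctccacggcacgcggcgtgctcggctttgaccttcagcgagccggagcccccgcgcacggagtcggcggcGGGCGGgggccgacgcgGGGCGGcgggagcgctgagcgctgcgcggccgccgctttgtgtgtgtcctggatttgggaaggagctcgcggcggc

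The *Igfbp1* window had 54.3% GC and 8 CpG, and the *Igfbp3* window 71.7% GC and 37 CpG. The *Igf1r* window was the richest of the 3, with 76% GC and 48 CpG.

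In null liver the receptor gene *Igf1r* and the binding protein gene *Igfbp1* rose, and no other member was called. That is 2 of 10, both higher, where 26.9% of all 14343 genes tested were called (13.5% higher and 13.4% lower). The median log2 change of the 10 was -0.05, against 0.02 for all genes. Libraries of the genotypes did not overlap for 3 members, *Igf1r*, *Igfbp1* and *Igfbp4*, against 46.6% of all genes. Both shares are under those of all genes.

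*Igf1r* was at 21.1, 17.5 and 22.1 CPM in WT liver and at 44.6, 32.3 and 32.6 CPM in null liver. Each null liver was above each WT liver, and the log2 fold change was 0.84 (SE 0.16, adjusted p = 0.0099). Null liver 1, the library with muscle and cartilage transcripts, was the highest. Without it the change was 0.69 (SE 0.15, adjusted p = 0.0138), and the call held in all 6 fits that left out 1 liver library.

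*Igfbp1*, an early target of fasting and glucocorticoid signals and a target of insulin repression, was at 2116, 1707 and 2604 CPM in WT liver and at 4903, 3663 and 8499 CPM in null liver. The null livers were all above the WT livers, though they also spread more among themselves. The log2 fold change was 1.41 (SE 0.32, adjusted p = 0.0176), and 1.51 (SE 0.33, adjusted p = 0.0151) without null liver 1. The call was lost without WT liver 1 (adjusted p = 0.0618) or WT liver 2 (adjusted p = 0.0699), and with all 12 libraries in 1 fit (adjusted p = 0.304). That fit estimated the spread of a gene from lungs and livers together. The part of the lungs, where counts of the gene were low, in the lost call was not tested.

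The remaining 8 members did not pass in liver. *Igf1* had a log2 fold change of -0.06 (SE 0.36, adjusted p = 0.911), and its livers overlapped. *Ghr* was at 90.7, 114 and 85.9 CPM in null liver, a change of 0.20 (SE 0.16, adjusted p = 0.367). *Igfals* was at -0.35 (SE 0.19, adjusted p = 0.202), *Igfbp2* at -0.23 (SE 0.12, adjusted p = 0.176) and *Igfbp4* at -0.21 (SE 0.12, adjusted p = 0.214). *Igfbp3* (-0.04, SE 0.33) and *Igfbp6* (0.40, SE 0.41) had wide errors.

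*Igfbp5*, whose protein binds matrix as well as IGFs, depended on a single library. It was at 85.9, 65.7 and 75.8 CPM in WT liver and at 87.0, 36.3 and 32.5 CPM in null liver. Null liver 1 was just above the WT range, and the other null livers were below it. The log2 fold change was -0.56 (SE 0.35, adjusted p = 0.267) with all livers and -1.13 (SE 0.16, adjusted p = 0.0039) without null liver 1, where 23.8% of all genes were called. *Igfbp6* showed the same library apart, at 12.5 CPM against 4.02 and 4.58 CPM, and its change went from 0.40 to -0.29 (SE 0.20, adjusted p = 0.327). In tissue RNA a change in the number of cells of a type and a change in the RNA per cell cannot be told apart. The part of the muscle, cartilage and mesenchyme transcripts in these values was not tested.

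**Figure D3:**
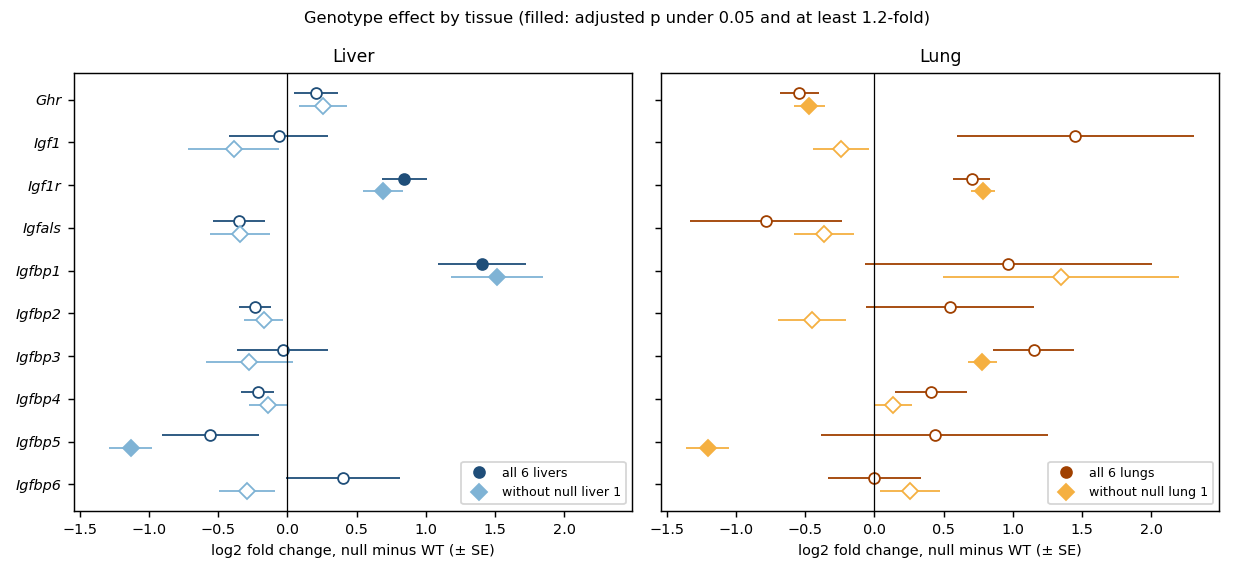
Log2 fold change, null minus WT, with its standard error for the 10 genes in liver (left) and lung (right), from all libraries (circles) and without null liver 1 or null lung 1 (diamonds), filled where a gene was called. *Igf1r* and *Igfbp1* are filled in liver either way. In lung no gene is filled until null lung 1 is left out, and *Igfbp5* is filled in both tissues without the library that stands apart.

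In lung, with all 6 libraries, no member was called, and 51 of 15591 genes (0.327%) were. At an unadjusted p under 0.05 there were 3 members, *Ghr*, *Igf1r* and *Igfbp3*, against 25.0% of all genes at that threshold. DESeq2 called those 3, and 12.1% of the genes it tested. The edgeR quasi-likelihood values were -0.54 (SE 0.14, adjusted p = 0.101) for *Ghr*, 0.70 (SE 0.13, adjusted p = 0.0687) for *Igf1r* and 1.15 (SE 0.29, adjusted p = 0.0968) for *Igfbp3*. Without null lung 1, 37.0% of 15885 genes were called, 18.0% higher and 19.0% lower, and so were 4 of the 10 members. Libraries of the genotypes did not overlap for 4 members with it and 5 without it, against 36.0% and 62.0% of all genes. *Igf1r* and *Igfbp3* were then higher and *Ghr* and *Igfbp5* lower in null lung.

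*Ghr* was at 97.4, 111 and 110 CPM in WT lung and at 64.6, 82.9 and 71.1 CPM in null lung. All null lungs were below all WT lungs, with null lung 1 lowest, and without that library the log2 fold change was -0.47 (SE 0.11, adjusted p = 0.0151). *Igf1r* was at 81.2, 78.8 and 76.2 CPM in WT lung and at 112, 140 and 133 CPM in null lung. Here too the groups were apart, and null lung 1 was the lowest null library. Without it the change was 0.79 (SE 0.09, adjusted p = 0.0011).

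*Igfbp3*, the main carrier of IGF1 in blood, was at 187, 161 and 171 CPM in WT lung and at 549, 312 and 285 CPM in null lung. The null lungs were all higher, and null lung 1 was the highest. Without it the log2 fold change was 0.78 (SE 0.10, adjusted p = 0.0019). *Igfbp5* was at 375, 316 and 315 CPM in WT lung and at 1057, 170 and 123 CPM in null lung. The library low in lung epithelium markers lay above the WT lungs and the other null lungs below them, so that the change was 0.44 (SE 0.82, adjusted p = 0.77) with it and -1.203 (SE 0.15, adjusted p = 0.0017) without it.

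For *Igf1* the sign turned with the same library, which was at 201 CPM beside 24.5 to 39.98 CPM in the WT lungs. With it the log2 fold change in lung was 1.45 (SE 0.86, adjusted p = 0.333), and without it -0.24 (SE 0.20, adjusted p = 0.376). Null lung 1 held 7.59 times the mean *Igf1* level of the other null lungs, 7.21 times their *Igfbp5*, 3.91 times their *Igfbp2* and 9.91 times their *Igf2*. It held 0.258 times their *Igfbp1* and 0.232 times their *Igfals*. Beside these stand its mesenchyme sum of 12135 CPM, against 2284 to 2748 CPM in the other lungs, with 6 of 8 markers above and 2 of 8 (*Pdgfrb* and *Tcf21*) below all of those, and its muscle and cartilage sums. Their part in the result was not tested. The changes without that library were 0.13 (SE 0.13) for *Igfbp4*, 0.26 (SE 0.21) for *Igfbp6*, -0.45 (SE 0.25) for *Igfbp2* and -0.36 (SE 0.22) for *Igfals*, none of which passed.

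Side by side, *Igf1r* was higher in null mice by 0.84 in liver and 0.70 in lung on the log2 scale, and by 0.69 and 0.79 without the library that stood apart in each. *Igfbp5* had log2 fold changes of -1.13 in liver and -1.203 in lung without those libraries. In the null lungs left, the smooth muscle sum was 284 to 303 CPM against 486 to 508 CPM in WT, and the striated muscle sum 470 to 563 CPM against 207 to 351 CPM. Their part in the lung values was not tested. *Igfbp1* was called in liver, and its lung value of 0.97 had an SE of 1.03. *Igfbp3* was higher in lung, while its liver value was close to 0. The test of the difference between tissues, lung effect minus liver effect, called none of the members and 60 of 16155 genes (0.371%), and 0 genes with the liver and lung of each number as a block. At an unadjusted p under 0.05, where 13.9% of all genes lay, were *Ghr* (-0.75, SE 0.23, adjusted p = 0.203) and *Igfbp3* (1.18, SE 0.50, adjusted p = 0.332). Without both libraries 1 the test called 5.18% of all genes and again no member. The *Igf1r* difference was then 0.10 with an SE of 0.16, and that of *Igfbp5* -0.07 with an SE of 0.23.

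The mix of binding protein transcripts differed by tissue, and within each tissue some of the shares lay apart between the genotypes. As a share of the length-scaled sum of the 6 genes, *Igfbp1* made up 47.9 ± 5.56% (SD, n = 3) in WT liver and 72.4 ± 9.64% in null liver. The WT livers lay between 41.7% and 52.4% and the null livers between 62.7% and 82.0%, without overlap. *Igfbp2* went the other way, from 41.8 ± 3.87% to 22.0 ± 7.77%, and *Igfbp4* from 8.39 ± 1.35% to 4.44 ± 1.48%. The summed level was 2912 ± 306 CPM per kb in WT liver and 5021 ± 1568 in null liver, so those falls in share went with a larger total. Shares within a library are tied to each other and carry no test here.

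In lung 4 genes shared the pool, and *Igfbp3* was the one whose share set the genotypes apart. It made up 21.6 ± 1.41% in WT lung and 33.1 ± 0.864% in null lung, and the null range of 32.3% to 34.0% included null lung 1. *Igfbp5* took 21.8 ± 0.499% in WT lung, 32.4% in null lung 1 and 7.69% and 9.37% in the other null lungs. The summed level was 256 ± 26.3 CPM per kb in WT lung, and 284 ± 24.0 in null lung without null lung 1 (n = 2).

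**Figure D4:**
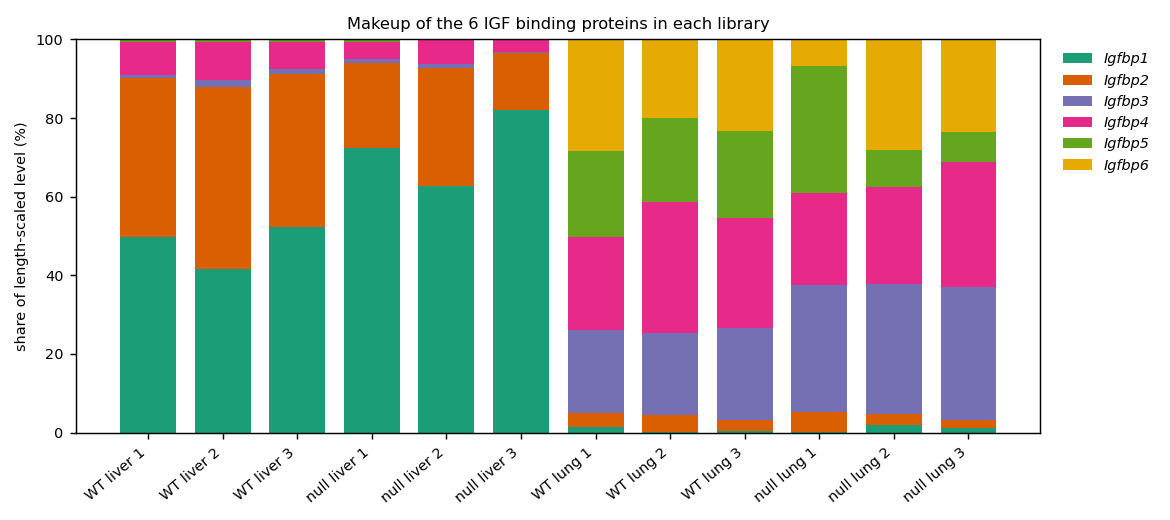
Share of each of the 6 binding protein genes (y axis, % of their summed CPM per kb, stacked to 100) in each library. *Igfbp1* and *Igfbp2* fill the liver bars, with *Igfbp1* larger in the null livers. In lung the *Igfbp3* band is wider in all 3 null libraries, and the *Igfbp5* band of null lung 1 is unlike that of the other null lungs.

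The small amount of *Igfbp1* in lung had a ratio to albumin like that of the livers. *Igfbp1* was at 6.01, 0.448 and 1.04 CPM in WT lung and at 1.68, 8.79 and 4.24 CPM in null lung, from 17 to 435 reads a library. The lungs with most *Igfbp1* were also those with most *Alb*, a hepatocyte transcript that stood at 17.5 to 313 CPM in lung and 98206 to 160556 CPM in liver. For every 1000 *Alb* reads there were 19.98 to 38.0 *Igfbp1* reads in WT lung and 28.1 to 45.2 in null lung. In the livers there were 11.97 to 26.5 in WT and 31.8 to 52.9 in null, so the lungs lay within the range of the 6 livers together. Within a genotype they did not all do so, with WT lung 3 above the WT livers and null lung 2 below the null livers. *Igfals* was at 8.47 to 159 per 1000 *Alb* reads in WT lung against 0.166 to 0.214 in WT liver, and *Igfbp2* at 64.8 to 1117 against 16.1 to 23.8. The part of liver RNA in the lung *Igfbp1* values was not tested.

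**Figure D5:**
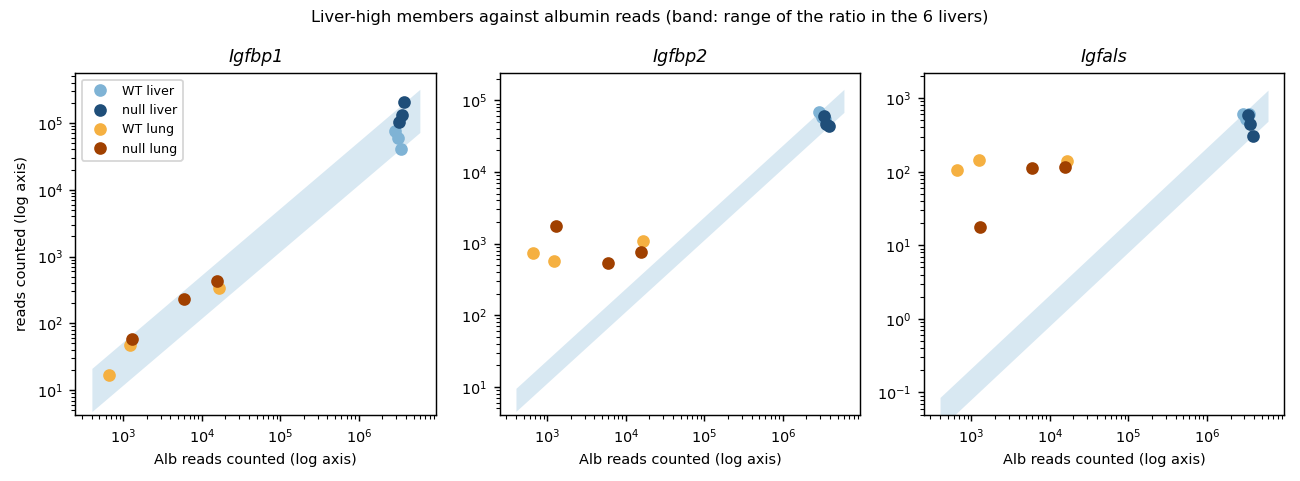
Reads of *Igfbp1*, *Igfbp2* and *Igfals* (y axis, log scale) against *Alb* reads (x axis, log scale) in 12 libraries, with the range of the ratio in the 6 livers as a band. The 6 lungs fall in the band for *Igfbp1*, and above it for *Igfbp2* and *Igfals*.

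The wider pathway was read from 6 lists, chosen with earlier results of these data known, so their counts describe and carry no test. Of 12 tested genes of growth hormone receptor signalling, 3 were called in null liver, all higher, and 2 without null liver 1. These shares were no higher than the 26.9% and 23.8% of all genes called in either direction. With all livers 13.5% of all genes were called higher. The 3 genes included *Socs2*, a feedback inhibitor induced by STAT5 (1.27, SE 0.19, adjusted p = 0.0050), and *Jak2*, the kinase bound to GHR (1.05, SE 0.10, adjusted p = 0.0020). Among receptor substrates and adaptors 3 of 9 were called, beside the same 26.9%. *Irs2*, the main hepatic insulin receptor substrate together with *Irs1*, was higher (1.35, SE 0.29, adjusted p = 0.0147), as was the Ras exchange factor gene *Sos1* (0.42, SE 0.11, adjusted p = 0.0299). The adaptor gene *Crk* was lower (-1.21, SE 0.14, adjusted p = 0.0028). With each liver library dropped in turn, *Sos1* was called in 1 of 6 fits, that without null liver 1, and adjusted p otherwise ran from 0.0591 to 0.0781.

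The PI3K and AKT list had 8 of 20 genes called, all higher, beside 26.9% of all genes called and 13.5% called higher, with a median log2 change of 0.20 over the 20 against 0.02 for all genes. The largest were *Foxo3*, a transcription factor that AKT holds out of the nucleus (0.92, SE 0.16, adjusted p = 0.0069), and *Eif4ebp1*, a brake on cap-dependent translation (0.92, SE 0.12, adjusted p = 0.0037). *Foxo3* was not called with all 12 libraries in 1 fit (adjusted p = 0.161). Without null liver 1 the count was 5 of 20, beside 23.8% of all genes. Of 8 proteases of binding proteins and their inhibitors, *Stc1*, a stanniocalcin that inhibits pappalysins, was called (1.79, SE 0.49, adjusted p = 0.0324). That call held in 1 of 6 fits without a liver library, that without null liver 2, and adjusted p otherwise ran from 0.0538 to 0.108. Of 8 proteins related to the binding proteins 3 were called, all higher, beside 26.9% of all genes called and 13.5% called higher. They were led by the matricellular genes *Cyr61* (2.35, SE 0.46, adjusted p = 0.0112) and *Ctgf* (1.72, SE 0.29, adjusted p = 0.0068). Without null liver 1 the count was 4 of 8, with 3 higher and 1 lower, beside 23.8% of all genes. The median log2 change of the 8 was 0.91 with all livers and 0.19 without null liver 1. *Cyr61* and *Ctgf* were still called without it, with smaller changes. Among 3 further ligands and receptors *Igf2* was called (0.36, SE 0.11, adjusted p = 0.0481), but in none of the 6 fits without a liver library (adjusted p from 0.0572 to 0.166), nor with DESeq2 size factors (0.0522) or total counts (0.163).

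In lung with all 6 libraries none of these lists had a called gene in edgeR's test. Of all genes 25.0% had an unadjusted p under 0.05. The numbers with an unadjusted p under 0.05 were 3 of 12 for growth hormone receptor signalling, 2 of 10 for substrates and adaptors and 6 of 20 for PI3K and AKT. For ligands and receptors the number was 1 of 3, for proteases 3 of 9 and for related proteins 1 of 9. Without null lung 1, growth hormone receptor signalling had 9 of 13 called, 7 of them higher, and PI3K and AKT had 10 of 20, 9 of them higher, beside 37.0% of all genes. The genes named in liver had lung values, without that library, of 0.76 (SE 0.10) for *Jak2*, 0.99 (SE 0.11) for *Irs2*, 1.29 (SE 0.15) for *Foxo3* -0.50 (SE 0.12) for *Crk* and 0.42 (SE 0.11) for *Socs2*, and these 5 were called. The other 6 were not, with 0.38 (SE 0.14) for *Sos1*, 0.06 (SE 0.12) for *Eif4ebp1*, 0.24 (SE 0.35) for *Stc1*, 0.51 (SE 0.22) for *Cyr61*, -0.18 (SE 0.27) for *Ctgf* and 0.07 (SE 0.14) for *Igf2*. Substrates and adaptors had 3 of 10 called, proteases 4 of 9 and related proteins 3 of 9, the last all lower, and ligands and receptors none of 3. The liver values of the named genes are from all 6 livers, except where null liver 1 is said to be left out. *Stc1* in liver was at 1.64 (SE 0.52) without null liver 1 and was not called.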

How the data were processed

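RNA was measured in 12 libraries made with a stranded poly-A kit and read as 75 bp pairs. Per the labels the authors used FastQC, STAR 2.5.2a, the mm10 build and DESeq2; they deposited whole-number counts per gene in each library, and the counting program and its strand setting are not given in the sources used here. Gene names follow the files, of which 27 look like dates, and positions follow GENCODE M21.

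The deposited counts were tested with edgeR 4.0.16 (filterByExpr, TMM, quasi-likelihood, Benjamini-Hochberg) in R 4.3.3 on the groups compared, and the difference between tissues on all 12 libraries. The rule of the calls, 1.2-fold and 0.05, is that of the study. The SE of a log2 fold change was its absolute value divided by the square root of the quasi-likelihood F statistic. The fit was also run on simulated counts with planted changes. Those held no library that stood apart, so that run does not show how the fit does on these data. Permutation over 3 against 3 libraries cannot go below an exact p of 0.1 and was not used for calls. Log values for likeness used CPM + 0.5. The genes named were the 10 members, *Man1a2*, the called pathway genes with the largest change (at most 2 per list and direction) and the 5 genes most like *Igf1* and *Igfbp1*. *Alb*, *Sftpc*, *Cldn18*, *Pdgfrb*, *Tcf21* and *Igf1os* were named after their values were seen. The members and lists were chosen with earlier results of these data known.

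Liver and lung of the same number deviated together (r from 0.184 to 0.468 in 6 pairs), and each correlated best with its own number. The numbers were therefore taken to pair tissues in the replicate block of the tissue comparisons and of the difference between tissues, while the main fits left them out. In the genotype comparisons the block joined WT and null libraries of the same number, which are from different pups, so it is not a pairing by pup. Null liver 1 and null lung 1 both held muscle and cartilage transcripts, whose part in the r of the null pairs was not tested. No libraries were copies of each other: the lowest chi-square per gene between replicates was 14.7. Alternatives were other scalings, filters, DESeq2 1.42.0, a replicate block, 1 fit of all libraries and leaving out each library. Total-count scaling and leaving out both libraries 1 were added after seeing the data.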

Additional observations from a re-analysis of the deposited data

How the results depend on the processing

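Genes called in liver, 3856, were 1921 with all 12 libraries in 1 fit and 1641 to 3451 with a library left out, and members called, 2, were 1 and 1 to 3. Genes called in lung, 51, were 2 with DESeq2 size factors, 109 with upper-quartile factors, 5 with TMM without the 20 most abundant genes, 2355 with DESeq2, 210 and 0 with a minimum of 10 or 1 counts, 2284 with all 12 libraries, 0 with the replicate block, 317 with total counts and 0 to 5881 with a library left out, the highest without null lung 1. Members called in lung, 0, were 3 with DESeq2, 1 with all 12 libraries and 0 to 4 with a library left out. Null lung against null liver gave 4458 to 9554 genes and 5 to 9 members with a library left out, and *Igfbp4* and *Igfbp5* lost their calls in 4 and 3 of 6 such fits. WT lung against WT liver gave 7 members with all 12 libraries and 8 with DESeq2 size factors. The difference between tissues, 60 genes, gave 610 with DESeq2, 92 and 33 with a minimum of 10 or 1 counts, 0 with the replicate block, 840 without both libraries 1 and 0 to 813 with a library left out, the highest without null lung 1.

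Sign changes were in members not called with all libraries, and *Igfbp5* in lung and *Igf1* between null tissues were called in the turned direction without null lung 1. With a library left out, liver log2 changes ran from -0.39 to 0.28 for *Igf1*, -0.28 to 0.22 for *Igfbp3* and -0.29 to 0.66 for *Igfbp6*. Lung changes ran from -0.24 to 1.87 for *Igf1*, -0.45 to 0.91 for *Igfbp2*, -1.20 to 0.87 for *Igfbp5* and -0.29 to 0.26 for *Igfbp6*. *Igfbp5* in lung was -0.30 with the replicate block, and *Igfbp6* in lung 0.023 with DESeq2 size factors, 0.018 with DESeq2 and 0.00055 with all 12 libraries. Null lung minus liver was 0.37 for *Ghr* with total counts, and for *Igf1* -0.12 with the replicate block, -0.90 without both libraries 1 and -1.17 to 0.91 with a library left out. The difference between tissues ran, with a library left out, from -0.15 to 1.96 for *Igf1*, -0.23 to 0.022 for *Igf1r*, -0.74 to 0.0082 for *Igfals*, -1.15 to 1.32 for *Igfbp1*, -0.19 to 1.17 for *Igfbp2*, -0.62 to 1.56 for *Igfbp5* and -0.69 to 0.30 for *Igfbp6*. It was 0.11 for *Igfbp1* with the replicate block and, without both libraries 1, 0.10 for *Igf1r*, -0.28 for *Igfbp2*, -0.070 for *Igfbp5* and 0.55 for *Igfbp6*. The cause of these moves was not tested.

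Between genotypes, same-numbered libraries did not deviate together (r from -0.043 to 0.143), 2 of 6 libraries in each tissue were closest to their own number, and the block gave 3304 genes in liver. The blocks changed no member's call. The common dispersion of the lung fit was 0.172 against 0.0542 in liver.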

Other observations

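Over the 12 libraries and 16155 genes, the 5 genes whose log2(CPM + 0.5) was most like that of *Igf1* by Pearson's r were *Angptl7* (0.974), *Dcaf12l1* (0.950), *Micu2* (0.944), *H2-T10* (0.938) and *Chrna4* (0.931). For *Igfbp1* they were *Pzp*, *Fga*, *Tat*, *Fgb* and *F2*, all at 0.995 or 0.996. *Fga*, *Fgb* and *F2* encode clotting proteins made by hepatocytes, and *Tat* an amino acid catabolic enzyme of the liver. The points share libraries and depth. For *Igfbp1* the spread is mostly the difference between tissues, and for *Igf1* null lung 1 is the highest point, so these values describe the libraries and carry no test.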
